A study of Sus scrofa with 23 samples.

Results

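The genes described here attach ubiquitin to proteins or take it off again: ubiquitin-conjugating enzymes (symbols beginning with UBE2), cullins, F-box proteins (FBXO, FBXL and FBXW), tripartite-motif proteins (TRIM followed by a digit) and ubiquitin-specific proteases (USP followed by a digit). They were chosen by symbol alone, from the gene name or the description that the array files give each probe, and FBXO32, TRIM63 and USP18 were set aside by the same rule. The rule took 80 of 43603 non-control probes, for 33 of the 4024 genes named on the array. Of these genes 5 were conjugating enzymes, 8 F-box proteins, 13 TRIM proteins, 5 proteases and 1 a cullin, CUL7. No probe of an E1 activating enzyme was among them.

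The samples were Longissimus muscle, a fast-twitch back muscle, of 23 pigs of 115 kg body weight from lines selected on residual feed intake (RFI). RFI is feed intake left over once the needs of growth and maintenance are subtracted, so a low value means less feed for the same production. The low-RFI group (RFIneg, 7 pigs) was fed ad libitum, the restricted high-RFI group (RFIplR, 8 pigs) came from the high line and received feed at the level of the low line, and the high-RFI group (RFIpl, 8 pigs) was fed ad libitum. Low-RFI against high-RFI pigs compares the lines at free feeding, restricted against free-fed high-RFI pigs compares feeding levels within the high line, and low-RFI against restricted pigs compares the lines at a like feeding level. The first pair of comparisons shares the free-fed high-RFI pigs, and the labels give no age, sex or litter.

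Each pig had 1 single-colour Agilent array, and a level below is the log2 processed signal of a probe minus the 75th percentile of its array. A level therefore describes 1 probe over pigs and sets no gene against another. Between 41.6% and 79.0% of the non-control probes were well above background on an array, with group medians of 69.3% in low-RFI, 67.3% in restricted and 67.9% in high-RFI pigs. The slide with the lowest shares, 41.6% to 58.8%, held arrays of all 3 groups. The tissue label was checked on 7 measured skeletal muscle markers, each well above background on all 23 arrays. Their summed linear level is given in multiples of the array's 75th percentile. It was 5573 to 6364 in low-RFI, 4831 to 6905 in restricted and 4787 to 6234 in high-RFI pigs. The summed level of 7 measured adipocyte markers was 19.3 to 52.1 in low-RFI, 21.6 to 81.3 in restricted and 20.6 to 132.7 in high-RFI pigs. Each sum compares pigs within its own list, and the lists are not set against each other. In low-RFI minus high-RFI all 7 adipocyte differences were below 0 (median -0.53), as were those of all 4 measured leukocyte markers (median -0.29), and all 7 muscle marker differences were above 0 (median 0.15). In restricted minus high-RFI these medians were -0.03, -0.40 and 0.07, and in low-RFI minus restricted -0.47, -0.13 and 0.06. The 4 endothelial, 2 fibroblast and 2 Schwann cell markers measured had medians of -0.18, 0.06 and -0.21 in low-RFI minus high-RFI. Their medians were -0.13, -0.22 and -0.05 in restricted minus high-RFI, and -0.01, 0.28 and -0.16 in low-RFI minus restricted. Of all these markers 0 passed the test in any comparison. Their part in the values below was not tested, and in whole muscle fewer cells of a type and less RNA per cell cannot be told apart.

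Ubiquitin is passed from an E1 activating enzyme to an E2 conjugating enzyme and then, with the help of an E3 ligase, to a lysine of the target protein. Cullins are the scaffolds of a large class of E3 ligases, and in a part of this class F-box proteins choose the target. TRIM proteins are mostly single-chain E3 ligases with a RING domain, and ubiquitin-specific proteases remove the mark. In skeletal muscle this system feeds proteins to the proteasome during turnover and atrophy and also steers endosomal sorting, mitochondrial clearance and signalling.

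No gene of these families passed the test in any comparison. Of the 80 probes, 71 probes of 28 genes were kept because in 1 group or more they stood well above background in 6 pigs or more, and 53 of them were so on all 23 arrays. At an adjusted p under 0.05 (limma, Benjamini-Hochberg over 27785 probes) 0 of the 71 were called between low-RFI and high-RFI pigs, where 0.122% of all probes were. Between restricted and free-fed high-RFI pigs 0 of 71 were called, against 0.0036% of all probes, and between low-RFI and restricted pigs 0 of 71, against 0.162%. The F test over the 3 groups called 0 of 71, against 0.137%. The smallest adjusted p among the members was 0.209 for low-RFI against high-RFI pigs, 0.189 for restricted against high-RFI pigs and 0.362 for low-RFI against restricted pigs (limma).

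Before adjustment, an F test p under 0.05 was reached by 10 of 71 member probes (14.1%) and by 12.5% of all probes. For low-RFI against high-RFI pigs 11 of 71 member probes (15.5%) had such a p, all with the higher level in low-RFI pigs, where 7.2% of all probes lay on that side and 3.91% on the other. For restricted against high-RFI pigs 15 of 71 (21.1%) did, 9 higher and 6 lower in restricted pigs, where 4.95% of all probes were higher and 4.81% lower. For low-RFI against restricted pigs 3 of 71 (4.23%) did, all higher in low-RFI pigs, where 5.57% of all probes were higher and 4.61% lower. Several of these probes belong to the same gene. In 0 members did the pigs of one group lie wholly apart from those of another, against 0.353%, 0.0792% and 0.227% of all probes in the 3 comparisons in the order above.

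The median difference over the 71 probes was 0.08 for low-RFI minus high-RFI, 0.03 for restricted minus high-RFI and 0.05 for low-RFI minus restricted pigs, beside 0.02, 0.01 and 0.02 over all 27785 probes. Differences were above 0 in 50, 41 and 45 of the 71 probes in these comparisons, against 55.3%, 53.1% and 54.7% of all probes. The probes varied little between pigs of a group: their median within-group SD was 0.20, and that of all probes 0.30. It ran from 0.12 for a probe of USP8 to 1.45 for a dim probe of TRIM26. 1 background correction, normexp on the raw spot and background signals, turned the sign of the restricted minus high-RFI median to -0.06. It moved the median of all probes in that comparison to 0.21, and it estimated a background SD over 100 intensity units on 5 arrays, 3 of them of restricted pigs, where the median array had 1.67. Its values are given beside several of the families and genes that they move. The low-RFI minus restricted median of 0.05 was 0.0042 over the 53 probes well above background on all arrays, -0.0013 without the slide with the lowest shares of detected probes and 0.01 without low-RFI replicate 3. The restricted minus high-RFI median of 0.03 was 0.07 without restricted replicate 4 and 0.08 with each array centred on its median.

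**Figure D1:**
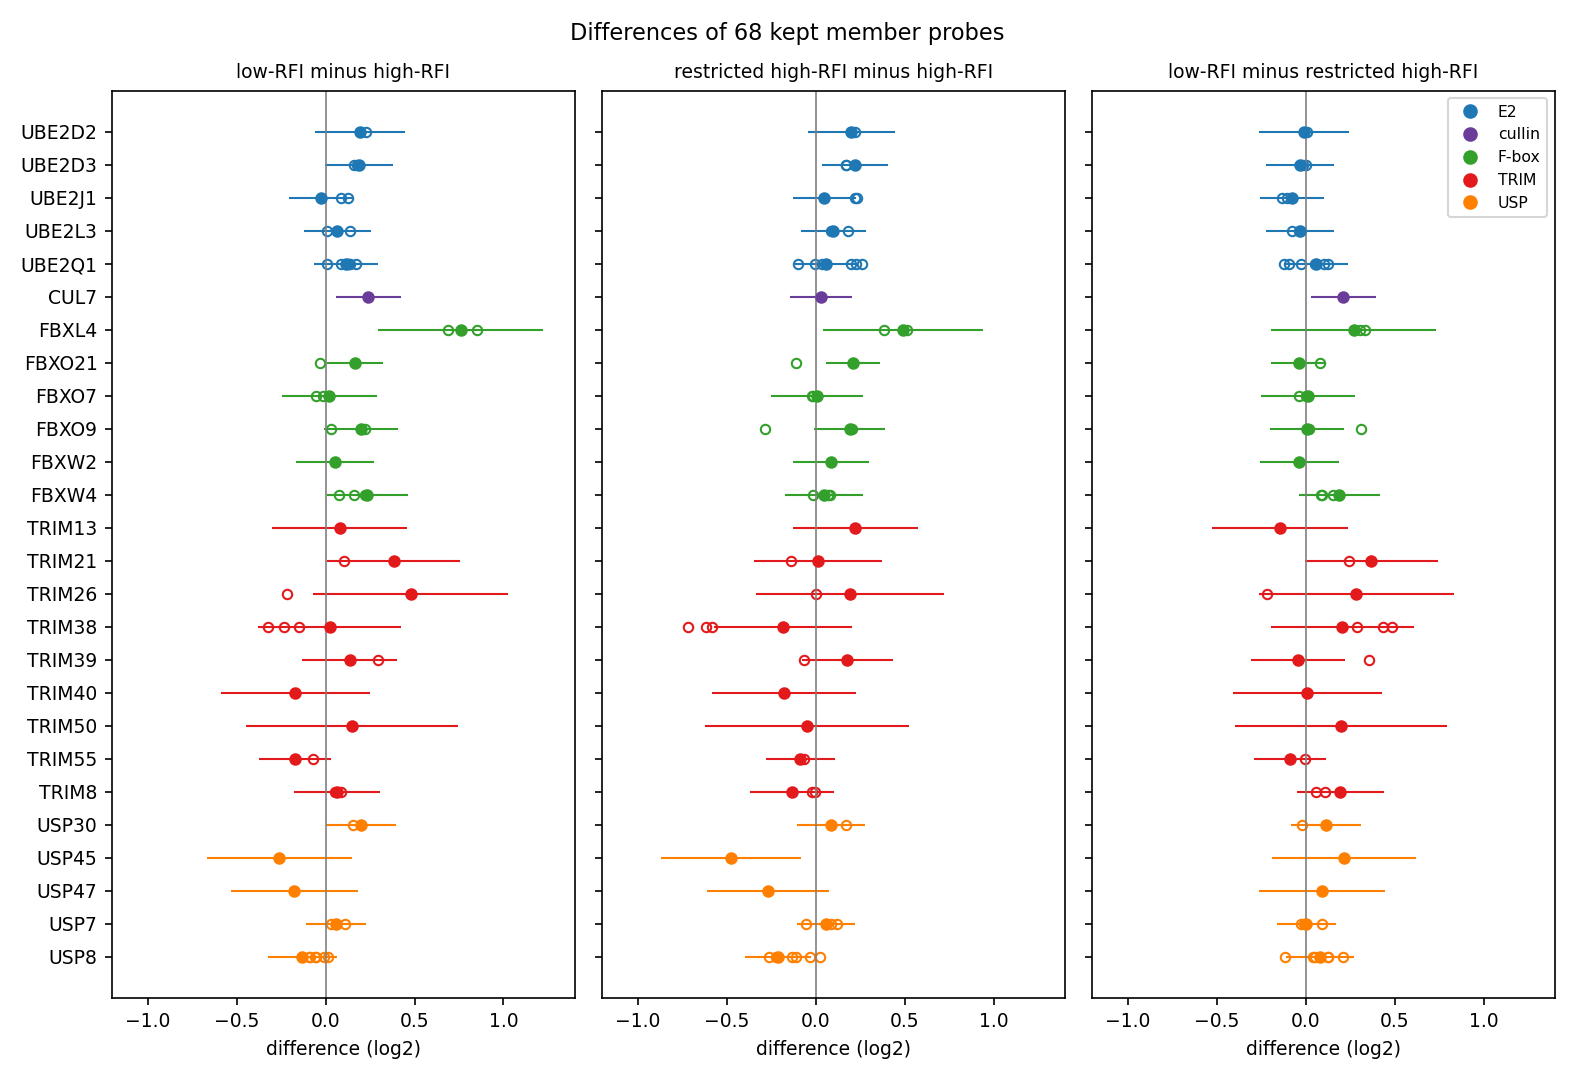
Differences in log2 level of 68 kept member probes in the 3 comparisons, 1 line per gene, coloured by family. Filled points are the brightest kept probe of a gene with its 95% interval from limma, open points are the gene's other kept probes, and the vertical line marks no difference. The 3 probes of FBXL4 lie farthest to the right in low-RFI minus high-RFI, at 0.69 to 0.85, and 3 probes of TRIM38 farthest to the left in restricted minus high-RFI, at -0.72 to -0.58.

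Most probes of the conjugating enzymes had the higher mean in low-RFI and in restricted pigs. All 18 probes of their 5 genes were kept, and 17 of 18 had a higher mean in low-RFI than in high-RFI pigs, with a median difference of 0.13. In restricted minus high-RFI 16 of 18 were above 0, with a median of 0.18, and in low-RFI minus restricted 6 of 18 were, with a median of -0.03. Of all probes 55.3%, 53.1% and 54.7% were above 0 in these comparisons. No probe of these enzymes passed the test. The probes of a gene are not independent of each other, and UBE2Q1 alone gave 7 of the 18. Normexp turned the medians of the conjugating enzymes to -0.05, -0.59 and 0.54, while normexp fitted on the negative control spots gave 0.13, 0.17 and -0.05. Quantile normalization gave 0.11, 0.11 and 0.01, and without low-RFI replicate 2 the last was 0.0039.

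UBE2D2 and UBE2D3, near-identical E2 enzymes that serve many ligases, had 5 kept probes between them. The files name 3 of these probes UBE2D2, but their accession now belongs to UBE2D3 in the RefSeq pig annotation, and they are called UBE2D3 here. No probe overlapped in sequence with a probe of another member gene, and cross-hybridisation between UBE2D2 and UBE2D3 was not tested. The 2 overlapping UBE2D3 probes are shown because they read adjoining stretches of the transcript and gave like values. The capitals mark the bases that both contain.
UBE2D3 probe at base 268: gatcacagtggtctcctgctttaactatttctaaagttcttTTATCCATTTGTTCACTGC
UBE2D3 probe at base 309: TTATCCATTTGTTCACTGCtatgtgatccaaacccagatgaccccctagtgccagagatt
They share 19 bases. The base number is the start in the source transcript as the files give it.

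The brighter of this pair, at base 309, had levels of 4.73 to 5.05 (median 4.91) in low-RFI pigs, 4.63 to 5.07 (median 4.93) in restricted pigs and 4.34 to 4.99 (median 4.69) in high-RFI pigs. The groups overlapped: 1 low-RFI and 3 restricted pigs lay above the highest high-RFI pig. Low-RFI minus high-RFI was 0.19 ± 0.09 (SE) and restricted minus high-RFI 0.22 ± 0.09, the second with a 95% interval of 0.04 to 0.41 and an adjusted p of 0.390 (limma). The other 2 UBE2D3 probes gave 0.16 and 0.18 in the first comparison and 0.17 and 0.17 in the second. The 2 UBE2D2 probes gave 0.23 and 0.19, and 0.22 and 0.20. In low-RFI minus restricted all 5 probes lay between -0.03 and 0.01. By scan day the restricted minus high-RFI difference of the brightest UBE2D3 probe was 0.31 and 0.13.

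UBE2L3, an E2 that works with ligases such as parkin, had 3 probes with differences of 0.07, 0.01 and 0.14 for low-RFI minus high-RFI and of 0.10, 0.09 and 0.18 for restricted minus high-RFI. The E2 genes outside the naming rule are given for completeness and were chosen after their values were seen. UBE2J1, a membrane-anchored E2 of the endoplasmic reticulum, had 3 probes at 0.09, 0.12 and -0.03 for low-RFI minus high-RFI, and at 0.22, 0.23 and 0.05 for restricted minus high-RFI. UBE2Q1 had 7 probes, and in restricted minus high-RFI they ran from -0.10 to 0.26. Its probes starting at bases 1467 and 1510, which overlap by 18 bases, gave 0.26 and 0.23, and those at 198, 1234 and 1292 gave -0.10, 0.06 and 0.04. For the probe at 1467, levels were 2.48 to 3.21 (median 2.92) in restricted and 2.51 to 2.72 (median 2.60) in high-RFI pigs, so 5 of 8 restricted pigs lay above all high-RFI pigs and 1 below them.

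CUL7, the only cullin with a probe, scaffolds a ligase with a narrow set of partners. Its levels were 1.63 to 1.93 (median 1.75) in low-RFI pigs, 1.19 to 1.76 (median 1.67) in restricted pigs and 1.43 to 1.69 (median 1.50) in high-RFI pigs. Of 7 low-RFI pigs 6 lay above the highest high-RFI pig. The restricted pigs were more spread, with an SD of 0.23 against 0.09 in high-RFI pigs. The low-RFI level was above the high-RFI level by 0.24 ± 0.09, a 1.18-fold level, with a 95% interval of 0.06 to 0.42 and an adjusted p of 0.298 (limma). It was above 0 on 6 of 6 slides, at 0.17 to 0.35, and was 0.21 and 0.29 by scan day. Normexp brought it to 0.08. The restricted minus high-RFI difference was 0.03 ± 0.09 and low-RFI minus restricted 0.21 ± 0.09, with adjusted p of 0.961 and 0.420 (limma). Under normexp these differences were -0.42 and 0.49.

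**Figure D2:**
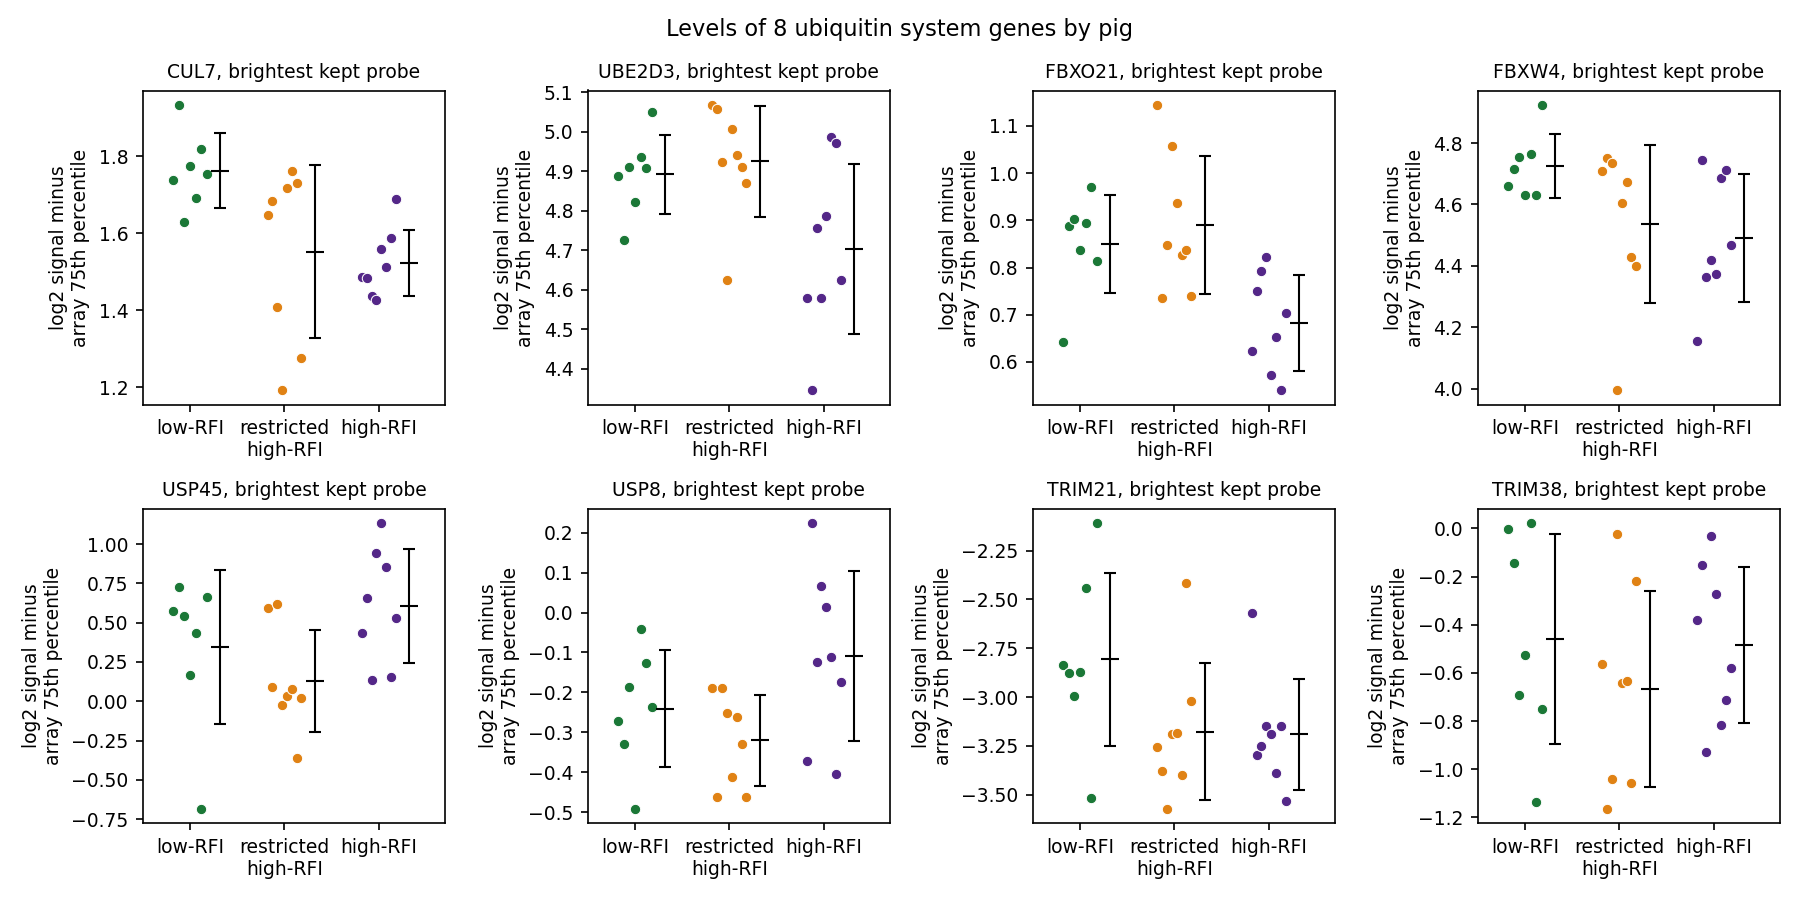
Level of the brightest kept probe of 8 genes in each pig, as log2 signal less the 75th percentile of its array, with low-RFI, restricted high-RFI and high-RFI pigs from left to right. Points are pigs and bars the group mean ± SD (n = 7, 8 and 8). The CUL7 panel shows most low-RFI pigs above the high-RFI pigs, and every panel shows overlap between the groups.

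Of the F-box proteins 18 of 19 probes were kept, for 7 of 8 genes. The probe of FBXO43 was not well above background on any array. The median difference of the kept probes was 0.12 for low-RFI minus high-RFI, with 13 of 18 above 0, 0.06 for restricted minus high-RFI and 0.05 for low-RFI minus restricted. The middle value turned to -0.07 under normexp.

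FBXL4 had the widest differences of the families in low-RFI minus high-RFI, though not in low-RFI minus restricted, where its probes gave 0.27 to 0.33 and a probe of TRIM38 reached 0.49. It is a mitochondrial F-box protein, and in human cells it holds down the receptors that mark mitochondria for removal. Its 3 probes do not overlap and gave like differences, and 2 of them are shown because each reads a separate stretch of the transcript. The capitals mark the complete codons of the only forward frame that holds no stop codon, 19 codons in each probe.
FBXL4 probe at base 868: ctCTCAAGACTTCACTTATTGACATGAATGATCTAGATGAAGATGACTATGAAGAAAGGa
FBXL4 probe at base 1873: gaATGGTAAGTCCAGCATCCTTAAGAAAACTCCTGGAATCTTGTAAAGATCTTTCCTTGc
The third and brightest probe starts at base 2080. Its sequence is not shown because it may lie outside the coding part of the transcript, which could not be looked up.

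The brightest probe had levels of 1.44 to 3.26 (median 2.18) in low-RFI pigs, 1.36 to 2.51 (median 2.04) in restricted pigs and 0.97 to 1.95 (median 1.62) in high-RFI pigs. Of the 7 low-RFI pigs 6 lay above the highest high-RFI pig, and 5 of the 8 restricted pigs did. Low-RFI minus high-RFI was 0.76 ± 0.22, a 1.69-fold level, with a 95% interval of 0.29 to 1.22 and an adjusted p of 0.209 (limma, unadjusted p = 0.0026). The probe at 868 gave 0.85 and that at 1873 gave 0.69, with adjusted p of 0.209 and 0.224 (limma). Restricted minus high-RFI was 0.49 ± 0.22 for the brightest probe, with a 95% interval of 0.04 to 0.94 and an adjusted p of 0.452 (limma), and 0.52 and 0.39 for the others. Low-RFI minus restricted was 0.27 ± 0.22, adjusted p = 0.739 (limma).

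The size of the FBXL4 difference was uneven over the arrays. The low-RFI minus high-RFI difference was 1.18 on one scan day and 0.25 on the other, and ran from -0.10 to 1.64 over the 6 slides, with 5 above 0. Whether the scan days differ was not tested. That of restricted minus high-RFI was 0.65 and 0.33 by scan day and above 0 on 6 of 6 slides. With slide as a fixed block the differences were 0.71 and 0.37. With each pig left out in turn the first ran from 0.60 to 0.90, with adjusted p from 0.118 to 0.399 (limma). The lowest difference and the highest adjusted p were those without low-RFI replicate 7. This pig had the highest level of all pigs on the brightest probe, 3.26. Its array had the lowest share of probes well above background, 41.6%. Normexp gave 0.60 for low-RFI minus high-RFI and moved restricted minus high-RFI to -0.04.

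**Figure D3:**
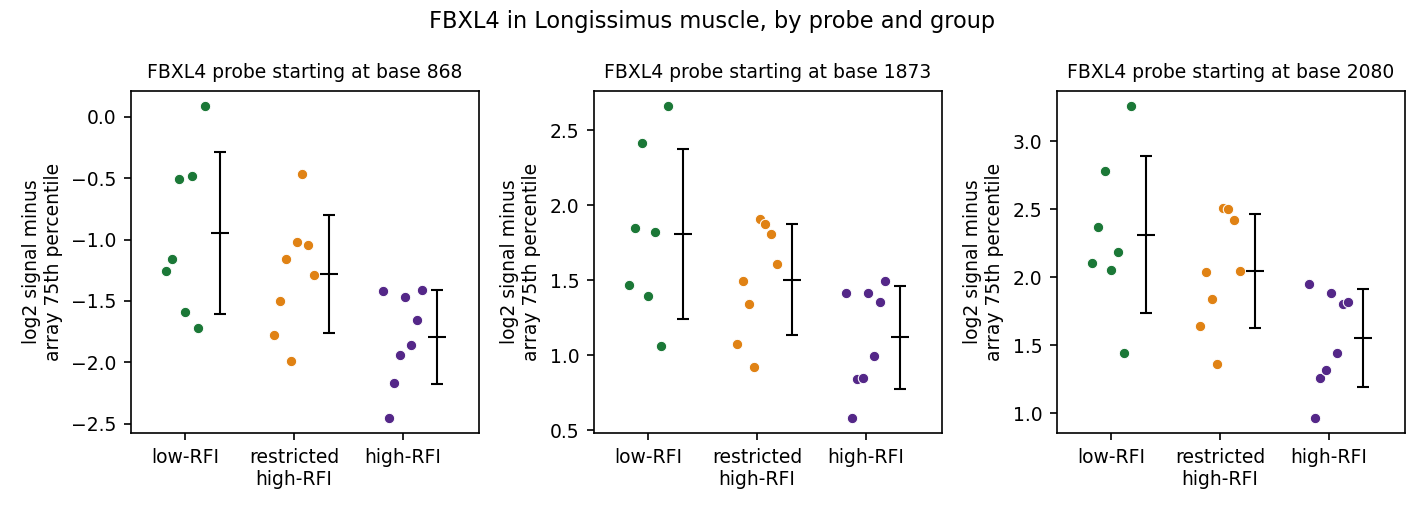
Levels of the 3 FBXL4 probes in each pig, as log2 signal less the 75th percentile of its array. Points are pigs, with low-RFI, restricted high-RFI and high-RFI pigs from left to right, and bars are the group mean ± SD (n = 7, 8 and 8). In each panel the low-RFI mean is the highest and the high-RFI mean the lowest, and the groups overlap.

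FBXO21 had 2 probes that disagreed. The brighter, at base 1859, had levels of 0.64 to 0.97 (median 0.89) in low-RFI pigs, 0.74 to 1.14 (median 0.84) in restricted pigs and 0.54 to 0.82 (median 0.68) in high-RFI pigs. Of the restricted pigs 6 of 8 lay above all high-RFI pigs. The difference from high-RFI pigs was 0.21 ± 0.07 for restricted pigs, with an adjusted p of 0.304, and 0.17 ± 0.08 for low-RFI pigs, with an adjusted p of 0.415 (limma). The second probe, from another source sequence, gave -0.11 for restricted and -0.03 for low-RFI pigs. The mean of both probes put restricted minus high-RFI at 0.05.

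FBXW4 had 4 kept probes, of which those at bases 1882 and 1887 overlap by 55 bases. In low-RFI minus high-RFI FBXW4 was above 0 on all 4, at 0.08 to 0.24, with 0.22 and 0.24 on the overlapping pair. Its brightest probe had levels of 4.63 to 4.92 (median 4.72) in low-RFI pigs, 3.99 to 4.75 (median 4.64) in restricted pigs and 4.15 to 4.75 (median 4.44) in high-RFI pigs. The difference was 0.24 ± 0.11, with an adjusted p of 0.433 (limma), and 0.01 under normexp.

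FBXO9, FBXO7 and FBXW2 were chosen after their values were seen. FBXO9 had a pair of probes, at bases 1732 and 2118, with 0.20 and 0.19 for restricted minus high-RFI, while that at 1377 gave -0.28. For the probe at 1377, levels were 1.75 to 2.62 (median 2.38) in restricted and 2.12 to 2.92 (median 2.60) in high-RFI pigs. FBXO7, an adaptor that also acts with parkin in mitochondrial quality control, had 3 probes between -0.05 and 0.02 in low-RFI minus high-RFI and between -0.02 and 0.01 in restricted minus high-RFI. The 95% interval of its brightest probe ran from -0.24 to 0.29 in low-RFI minus high-RFI. FBXW2 had 0.05 and 0.09 in the same comparisons.

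Of the TRIM proteins 18 of 26 probes were kept, for 9 of 13 genes. TRIM10, TRIM15, TRIM35 and TRIM69 had no kept probe, and the TRIM69 probes were well above background on at most 4 arrays of any group. The median difference of the 18 kept probes was 0.06 for low-RFI minus high-RFI, -0.07 for restricted minus high-RFI and 0.20 for low-RFI minus restricted. Normexp gave 0.23, 0.62 and -0.37. The first was -0.02 under quantile normalization, over the 4 probes well above background on all arrays, without low-RFI replicate 2 and without low-RFI replicate 3, and the last was -0.02 over the same probes.

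TRIM55, known as MuRF2 and bound to the sarcomere, had levels on its brighter probe of 2.27 to 2.88 (median 2.40) in low-RFI pigs, 2.36 to 2.69 (median 2.55) in restricted pigs and 2.37 to 2.96 (median 2.57) in high-RFI pigs. The groups overlapped over most of their range. Low-RFI minus high-RFI was -0.17 ± 0.10, with a 95% interval of -0.37 to 0.03, and its other probe gave -0.07. Restricted minus high-RFI was -0.09 ± 0.09. TRIM8, which acts in cytokine signalling, had differences of 0.06 ± 0.12 for low-RFI minus high-RFI and -0.13 ± 0.11 for restricted minus high-RFI on its brightest probe.

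TRIM21, a cytosolic receptor of antibodies, had levels on its brighter kept probe of -3.52 to -2.11 (median -2.87) in low-RFI pigs, -3.57 to -2.41 (median -3.22) in restricted pigs and -3.53 to -2.57 (median -3.22) in high-RFI pigs. Low-RFI minus high-RFI was 0.38 ± 0.18, with an adjusted p of 0.438, and low-RFI minus restricted 0.37 ± 0.18, with an adjusted p of 0.495 (limma). The first was 0.66 on one scan day and 0.04 on the other. It was 0.27 without low-RFI replicate 7, the highest pig, at -2.11, whose array had the lowest share of detected probes. The other kept probe of TRIM21 gave 0.11 and 0.24 in these comparisons, and 1 more probe of the gene was not kept.

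TRIM38, a regulator of innate immune signalling, was chosen after its values were seen, as the member with the lowest differences in restricted pigs. The files hold 1 of its probe sequences under 2 probe names, shown here because the pair measures the agreement of the array with itself.
TRIM38 both probes at base 531: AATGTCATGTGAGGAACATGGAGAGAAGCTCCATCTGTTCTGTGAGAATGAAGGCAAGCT
The 60 bases are the same in both. Within a pig these twins differed by -0.17 on average, with an SD of 0.25 and by up to 0.73, so a difference of that size in 1 pig is within what the same sequence gives. Their restricted minus high-RFI differences were -0.72 ± 0.26 and -0.58 ± 0.20, with adjusted p of 0.310 and 0.273 (limma). The second twin had levels of -4.09 to -2.83 (median -3.18) in restricted and -3.24 to -2.23 (median -2.83) in high-RFI pigs, and 3 of 8 restricted pigs lay below all high-RFI pigs. Another dim probe, at base 775, gave -0.62. The brightest probe, at base 1727 and well above background on all 23 arrays, gave -0.18 ± 0.19, with a 95% interval of -0.57 to 0.20.

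A pair of overlapping TRIM50 probes is shown because they were detected on different numbers of arrays. They share 47 bases in 2 runs of 32 and 15 bases, marked in capitals, and the second holds 3 more bases between the runs.
TRIM50 probe at base 680: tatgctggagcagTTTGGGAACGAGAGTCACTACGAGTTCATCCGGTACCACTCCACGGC
TRIM50 probe at base 693: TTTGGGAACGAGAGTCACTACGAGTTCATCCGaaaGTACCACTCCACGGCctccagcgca
The first was well above background on 0 of 23 arrays, and the second on 6 low-RFI, 6 restricted and 6 high-RFI arrays. The second gave 0.15 ± 0.29 for low-RFI minus high-RFI. The remaining TRIM genes with a kept probe were TRIM13, TRIM26, TRIM39 and TRIM40, named after their values were seen. Their brightest probes gave 0.08, 0.48, 0.13 and -0.17 for low-RFI minus high-RFI, and 0.22, 0.19, 0.18 and -0.18 for restricted minus high-RFI. The other kept probe of TRIM26 gave -0.21 and 0.0021 in these comparisons, and that of TRIM39 gave 0.29 and -0.06. For the brightest TRIM26 probe the 95% interval of low-RFI minus high-RFI was -0.07 to 1.03. The TRIM13 probe lacked 1 value, that of 1 low-RFI pig, whose spot was marked as an outlier. In the pig gene order TRIM40, TRIM10, TRIM15 and TRIM26 follow each other, with TRIM39 8 genes on.

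All 15 probes of the 5 ubiquitin-specific protease genes were kept. Their median difference was -0.01 for low-RFI minus high-RFI, -0.06 for restricted minus high-RFI and 0.08 for low-RFI minus restricted. The first changed sign in 7 of 37 other settings, and the others in 0. USP8 gave 7 of the 15 probes, and the last median is the value of its brightest probe. These medians therefore rest in large part on 1 gene.

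USP8, which trims ubiquitin from receptors on endosomes, had 7 probes along its transcript. The probe nearest the start, at base 617, had levels of -1.35 to -1.10 (median -1.28) in low-RFI pigs, -1.57 to -1.34 (median -1.48) in restricted pigs and -1.52 to -0.96 (median -1.18) in high-RFI pigs. Restricted minus high-RFI was -0.26 ± 0.08, with a 95% interval of -0.42 to -0.10 and an adjusted p of 0.189 (limma), and 3 of 8 restricted pigs lay below all high-RFI pigs. Low-RFI minus restricted was 0.21 ± 0.08, adjusted p = 0.362 (limma). The probes at 2174, 3009, 3352, 3461, 3570 and 3886 gave -0.22, -0.21, -0.13, -0.11, -0.03 and 0.03 for restricted minus high-RFI, so the difference was smaller toward the end of the transcript. The brightest, at 3009, gave -0.21 ± 0.09, with -0.39 and -0.03 by scan day. For low-RFI minus high-RFI the 7 probes lay between -0.13 and 0.01.

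**Figure D4:**
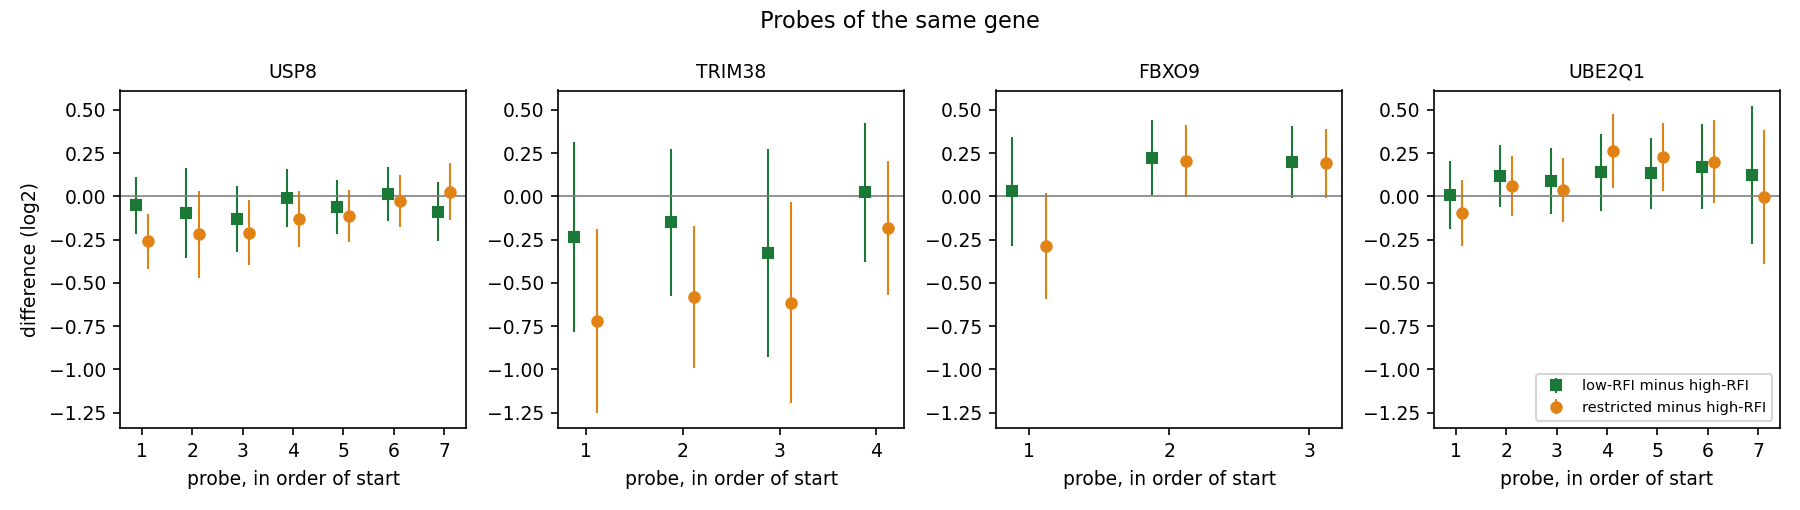
Differences in log2 level of each kept probe of USP8, TRIM38, FBXO9 and UBE2Q1, in the order of the start the files give, with 95% intervals from limma. The first 5 UBE2Q1 probes come from 1 source sequence and the last 2 from another, so their order is not one along a single transcript. Squares are low-RFI minus high-RFI and circles restricted minus high-RFI. The USP8 circles run from -0.26 at the first probe to 0.03 at the last, and the first FBXO9 circle lies at -0.28 while the others lie at 0.20 and 0.19.

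USP45 had 1 probe, with levels of -0.69 to 0.73 (median 0.54) in low-RFI pigs, -0.36 to 0.62 (median 0.05) in restricted pigs and 0.13 to 1.13 (median 0.60) in high-RFI pigs. Of the restricted pigs 6 of 8 lay below all high-RFI pigs. Restricted minus high-RFI was -0.48 ± 0.19, a 0.72-fold level, with a 95% interval of -0.87 to -0.08 and an adjusted p of 0.385 (limma). It was -0.70 and -0.25 by scan day and below 0 on 5 of 6 slides. Low-RFI minus high-RFI was -0.26 ± 0.20, adjusted p = 0.681 (limma). In the pig gene order USP45 lies 4 genes from FBXL4, whose differences in the same comparisons were 0.49 and 0.76.

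USP30, which sits on the outer mitochondrial membrane and opposes parkin, had overlapping probes with 0.20 and 0.15 for low-RFI minus high-RFI and 0.08 and 0.17 for restricted minus high-RFI. The brighter had 0.39 to 0.76 (median 0.62) in low-RFI pigs, 0.25 to 0.74 (median 0.35) in restricted pigs and 0.16 to 0.68 (median 0.35) in high-RFI pigs. USP7, which stabilises the p53 regulator MDM2 among other targets, had 4 probes, which lay between 0.03 and 0.11 for low-RFI minus high-RFI and between -0.06 and 0.12 for restricted minus high-RFI. The brightest had 3.98 to 4.32 (median 4.25) in low-RFI, 3.93 to 4.35 (median 4.22) in restricted and 3.87 to 4.30 (median 4.12) in high-RFI pigs, and the 95% interval of low-RFI minus high-RFI was -0.11 to 0.23. USP47, chosen after its values were seen, had -0.18 ± 0.17 for low-RFI minus high-RFI and -0.27 ± 0.17 for restricted minus high-RFI.

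Over the 20 genes with several kept probes, all probes of a gene had the same sign in 14 genes for low-RFI minus high-RFI, in 10 for restricted minus high-RFI and in 10 for low-RFI minus restricted. The median spread between the highest and the lowest probe of a gene was 0.15, 0.14 and 0.12 in these comparisons. In the restricted group 1 pig, replicate 4, was the lowest of the group in 28 of 71 member probes (39.4%), and in 14.1% of all probes. Without it the conjugating enzymes had a median of 0.21 for restricted minus high-RFI, with 17 of 18 above 0, and the F-box proteins 0.12.

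The wider pathway was described from lists of other genes. Of 3 listed genes that encode ubiquitin only UBB was measured, and it differed by 0.00 for low-RFI minus high-RFI and 0.09 for restricted minus high-RFI. Of 21 symbols listed for partners of cullin ligases, which include older names of the same genes, 6 were measured. Of these, 5 had a higher mean in low-RFI than in high-RFI pigs (median difference 0.10). In restricted against high-RFI pigs 6 had the higher mean in restricted pigs (median 0.09). Of 22 other ligases 7 were measured, with medians of 0.08 and 0.12, and of 13 deubiquitinases of other families 6 were measured, with medians of 0.04 and 0.13. Of 10 symbols listed for ubiquitin receptors and segregases, an older name among them, only VCP was measured, at 0.06 and 0.26. In low-RFI minus restricted UBB differed by -0.09 and VCP by -0.19. The medians in that comparison were -0.05 for the cullin partners, -0.02 for the other ligases and -0.06 for the other deubiquitinases. None of these genes passed the test in any comparison. Of the 3 genes set aside by the rule 2 were measured: FBXO32, the F-box protein of muscle atrophy, at 0.59 ± 0.27 for low-RFI minus high-RFI (adjusted p = 0.416, limma), and USP18 at -0.03 ± 0.32. Neither passed.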

How the data were processed

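The deposited spot intensity values are Agilent's processed signals: Feature Extraction 10.7.3.1 took off the background and a spatial trend array by array, per the file headers, with no scaling between arrays. The deposited log2 values were used as an alternative only, and the submitters' processing notes name R 2.10.0. From 43803 non-control spots, log2 signals less the array's 75th percentile were averaged per probe, leaving out spots marked as outliers. One limma 3.58.1 fit (R 4.3.3) held all 3 groups. Levels of a gene are those of its kept probe with the highest mean unless a start is given. Counts and medians cover all members, and the own values of 2 members are not reported here. Slide and scan day are those of the file headers. Genes were named if called, if among the 6 smallest p of a comparison, or if on a list of known roles; members and lists were chosen with earlier results of these data known. RefSeq names and gene order are those of Sscrofa11.1. The scripts were first tested on simulated data with known log2 changes. Those were rises of 1 and falls of 0.5, planted in independent normal noise without slide or scan-day effects. For low-RFI minus high-RFI the scripts called 77 of 100 changes of 1 and 26 of 100 changes of 0.5, with 9 false calls. For restricted minus high-RFI they called 80 and 32 of 100, with 7 false calls. These counts describe the simulation and do not give the sensitivity on the real arrays. Precision is limited by the number of arrays. Alternatives changed the background correction, the scaling, the filter on dim probes, the variance model, the blocks for slide, scan day and replicate number, and the pigs included.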

Additional observations from a re-analysis of the deposited data

Results flagged for a closer look

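In 48 checks of a named gene in a group, 5 pigs stood far from the rest of their group on the gene's brightest probe, and chance flags about 1 in 20 such groups. Restricted replicate 4 was low for FBXW4, at 3.99 with the next pig at 4.40, and for UBE2D3, at 4.63 with the next at 4.87. High-RFI replicate 1 was high for TRIM21, at -2.57 with the next pig at -3.15. Low-RFI replicate 1 was high for TRIM55, at 2.88 with the next at 2.46. Low-RFI replicate 6 was low for USP45, at -0.69 with the next at 0.16, and without it low-RFI minus high-RFI was -0.09 in place of -0.26.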

How the results depend on the processing

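Under every one of the 37 alternatives of each contrast and the 36 of the F test, 0 member probes were called. The median differences over the members moved by less than 1 SD between pigs. That SD was 0.13, larger than the medians of 0.08, 0.03 and 0.05 themselves, so a change of sign could stay within it. The smallest adjusted p of a member ranged over the alternatives from 0.118 to 0.988 for low-RFI minus high-RFI, from 0.116 to 0.447 for restricted minus high-RFI, from 0.268 to 0.651 for low-RFI minus restricted and from 0.125 to 0.437 for the F test (limma). Over all probes the calls were 0 to 52, 0 to 3, 0 to 98 and 0 to 138 in these tests, and 22 to 40, 0 to 7, 18 to 68 and 24 to 70 with 1 pig left out. Of the values of named genes under alternatives 1788 moved by less than 1 SD and 30 by more, 29 of them under normexp, where the cause was not tested, and 1 for FBXO21 with its probes averaged. The replicate number as a block gave 0 member calls and 28, 0, 20 and 19 calls over all probes; same-numbered pigs of different groups correlated at -0.301 to 0.331, with 7 of 22 pairs over 0.1, and 4 of 23 pigs correlated best with their own number, so the numbers were not taken as pairs. The number of arrays limits the precision, and for dim probes so does the signal over background.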
